A study of Mus musculus with 4 samples.

Results

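The genes described here encode the proteins of the mitochondrial ribosome. They were chosen by symbol alone, as every gene whose symbol starts with Mrpl or Mrps and a digit and which has a probe set with a single gene symbol, each gene read from its probe set of highest mean. The rule took 77 of the 19938 genes measured, 48 named for the large subunit (Mrpl) and 29 named for the small subunit (Mrps). RefSeq (GRCm38.p6) lists 78 protein-coding genes with such symbols, and the other one, Mrpl53, shared its probe set with Ccdc142 and was left out by the rule. The 77 genes lie on 17 chromosomes, with at most 11 on one (chromosome 11).

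Expression was measured in BCR-ABL leukemia stem cells of a mouse model of chronic myeloid leukemia, on 4 Affymetrix whole-transcript arrays. Donor marrow came from C57BL/6 mice (WT, 2 arrays) or Hif1a-/- mice (2 arrays), labelled with an age of 8 weeks. In both groups donors had received 5-fluorouracil, the marrow was transduced with a BCR-ABL/GFP retrovirus, and B6 recipients were transplanted with it. GFP+ Lin- c-Kit+ Sca-1+ cells were sorted after 14 days. The labels name no Hif1a allele, promoter or Cre, and they call the arrays biological replicates without saying that they came from separate animals, so p-values measure the spread between these samples, which may be technical. Values are log2 expression after RMA, which subtracts background, gives all arrays the same distribution and merges the probes of each set into 1 value.

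Mitochondria translate the few proteins that their own genome encodes, all subunits of the respiratory chain and ATP synthase, on a ribosome of bacterial descent. Its RNAs come from mitochondrial DNA, while its proteins are encoded in the nucleus, made in the cytosol and imported. Many bear a family name from bacteria and others exist only in mitochondria. Hif1a encodes the oxygen-regulated subunit of HIF-1, which is known to favour glycolysis and to restrain mitochondrial activity, and the comparison of Hif1a-/- with WT asks which genes differ without it.

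Promoter sequences are shown first, since the members moved together between arrays and their promoters are the stretch of DNA in which shared letters could be looked for. The RefSeq promoter table (GRCm38.p6, 250 bases before to 50 after a gene's annotated start) held 74 promoters of 68 of the members. It was searched on both strands for letters bound by factors known for mitochondrial genes: CCGGAAG, the core of ETS factors such as GABPA, GCGCATGCG for NRF1 with the looser GCGCNTGCG, and AAGATGGCG for YY1. The exact NRF1 letters are part of the looser ones. The ETS letters were present in 25 of the 74 member promoters (33.8%). They were in 8.86% of all 32851 promoters of that length and in 12.1% of those of the genes measured. The looser NRF1 letters were in 18 (24.3%, against 6.31% of all), the exact ones in 7 (9.46%, against 1.75%) and the YY1 letters in 8 (10.8%, against 1.40%). Among promoters of the genes measured, the shares of these strings were 9.33%, 2.55% and 1.94%. At least one of the ETS, looser NRF1 or YY1 strings was in 42 of the 74 (56.8%), against 14.9% of all promoters and 20.8% of those of the genes measured. Median GC content was 58.5% in member promoters, 52.7% in all and 57.7% in those of the genes measured, and the median number of CG pairs was 21, 7 and 15. A match of letters is a description and not a binding site.

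The 7 members with the exact NRF1 letters are set out for comparison, each with 10 bases on either side, 5′ to 3′ on the gene's strand, and with the match, in either orientation, in capitals.
Mrpl9, chr3:94443298-94443326: aggcgcagctGCGCATGCGcggggtcctt
Mrpl10, chr11:97041437-97041465: cccagctccaCGCATGCGCatagcggccc
Mrpl17, chr7:105811080-105811108: ccgagttactGCGCATGCGtcctctgaga
Mrpl22, chr11:58171621-58171649: gcctcggactGCGCATGCGtatagtcagc
Mrpl32, chr13:14613042-14613070: gcggacttaaCGCATGCGCtcagcccgcg
Mrpl39, chr16:84735351-84735379: aaggagaggcGCGCATGCGcccccgcgtg
Mrps18b, chr17:35916646-35916674: aacggcccgaCGCATGCGCactgggagca
The genes on chromosomes 7, 13 and 16 and Mrps18b lie on the minus strand. Counting the last base before the annotated start as -1, their matches began at -11 (Mrpl17), -23 (Mrpl32), -125 (Mrpl39) and -224 (Mrps18b), and those of Mrpl9, Mrpl10 and Mrpl22 at -28, -135 and -33. Mrpl32 held another match at -87. The matches of Mrpl9 and Mrpl22 lie inside the RefSeq spans of these genes, which begin at 94443154 and 58170043. The start used for them is thus not the outermost one.

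Whole upstream stretches of 250 bases are shown for Mrpl52, which had the smallest p-value of the members, for Mrps22, of the small subunit, and for Mrpl12, the stalk protein, the last pair chosen after their values were seen. Mrps10, which had the smallest p-value of the small subunit, is not shown because its window in the table lies within the span of another of its transcripts. Capitals mark the ETS letters in the first and second, and the looser NRF1 letters in the third.
Mrpl52, chr14:54426659-54426908, plus strand: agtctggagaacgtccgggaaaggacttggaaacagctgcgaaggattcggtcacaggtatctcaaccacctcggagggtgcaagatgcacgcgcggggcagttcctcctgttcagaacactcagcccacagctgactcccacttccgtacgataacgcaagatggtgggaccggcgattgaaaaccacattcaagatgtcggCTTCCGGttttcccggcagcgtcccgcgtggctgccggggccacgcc
Mrps22, chr9:98601680-98601929, minus strand: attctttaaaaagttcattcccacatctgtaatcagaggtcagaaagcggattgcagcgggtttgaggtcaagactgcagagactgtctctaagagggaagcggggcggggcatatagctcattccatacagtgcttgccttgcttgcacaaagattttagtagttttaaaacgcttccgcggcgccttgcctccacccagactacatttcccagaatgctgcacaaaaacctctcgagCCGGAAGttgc
Mrpl12, chr11:120484387-120484636, plus strand: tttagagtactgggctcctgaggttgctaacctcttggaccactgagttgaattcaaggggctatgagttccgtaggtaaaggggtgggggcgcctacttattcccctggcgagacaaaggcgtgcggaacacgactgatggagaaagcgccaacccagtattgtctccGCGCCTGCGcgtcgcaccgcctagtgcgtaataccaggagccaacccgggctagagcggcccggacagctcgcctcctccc
The ETS match lay at -47 in Mrpl52, on the other strand, and at -11 in Mrps22. The looser NRF1 match of Mrpl12 lay at -81.

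Many member genes start close to a gene that runs the other way. Of the 68 members in the promoter table, 26 (38.2%) had a start on the opposite strand, pointing away, within 1000 bases, against 12.2% of all genes of the table and 14.4% of the genes measured. Mrps12 lay 147 bases from Sars2, the mitochondrial seryl-tRNA synthetase, Mrpl43 lay 116 bases from Twnk, the helicase of mitochondrial DNA, and Mrpl47 lay 308 bases from Ndufb5, a subunit of respiratory complex I. Mrps11 and Mrpl46 faced each other across 42 bases.

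The arrays and the sort were checked against marker genes. The WT arrays differed more from each other than the Hif1a-/- arrays did, with a median absolute gap over all genes of 0.19 on the log2 scale between the WT arrays and 0.11 between the Hif1a-/- arrays. Kit, a gene of the sort gate, read 10.32 and 11.07 on WT replicates 1 and 2 and 10.95 and 10.61 on Hif1a-/- replicates 1 and 2; for Ly6a, which encodes Sca-1, every probe set was shared or unnamed. Of 9 lineage genes that the gate should remove, 7 were measured, and all 7 read higher on WT replicate 1 than on WT replicate 2. Among these, Ly6g of granulocytes read 13.10 and 10.64 on WT replicates 1 and 2, and 11.74 and 11.64 on the Hif1a-/- arrays. Over 12 granulocyte genes the median gap was -0.74 (WT replicate 2 minus replicate 1), with a range from -2.05 (Ltf) to 0.70 (Mpo). The 4 that read higher on WT replicate 2 were Mpo, Prtn3, Elane and Ctsg, which encode proteins of the primary granules made early in granulocyte maturation. Cd34, a progenitor gene, had a gap of 1.98, and Ptprc, the common leukocyte antigen, one of -0.46. RMA gives no call of presence, so a low reading does not show that a marker was absent. Hif1a itself read 11.34 and 11.50 in WT and 11.25 and 11.39 in Hif1a-/- cells. Its groups overlapped and the difference was -0.095 ± 0.13 (SE), so these values do not show a loss of Hif1a RNA. A probe set spread over the whole transcript may keep its signal when a part is deleted, which was not tested.

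Mitoribosomal genes were, in most cases, slightly higher in the mean of the Hif1a-/- arrays than in that of the WT arrays, and 0 of 77 passed the test. The mean was higher in 42 of 48 large subunit genes and in 24 of 29 small subunit genes, against 61.4% of all genes. The median difference, Hif1a-/- minus WT, was 0.092 on the log2 scale for the large and 0.086 for the small subunit, against 0.034 over all genes. By limma with Benjamini-Hochberg adjustment over all genes, no member was called at an adjusted p under 0.05, and the smallest adjusted p among them was 0.999. Of all 19938 genes measured, 0 were called (0%). At an unadjusted limma p under 0.05, 1 large subunit gene (Mrpl52, higher) and 0 small subunit genes stood out, against 0.697% of all genes higher and 0.978% lower. Marker genes of other blood cells also differed in mean between the genotypes: 9 of 9 erythroid genes had a higher mean in Hif1a-/- cells (median 0.61), while 12 of 12 mast cell and basophil genes (median -0.46) and 8 of 10 dendritic cell and monocyte genes (median -0.59) had a lower one. None of these was called after adjustment, and their part in the values of the members was not tested.

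The sign of this small difference rested on WT replicate 1. That array was the lowest of the 4 for 69 of the 77 members, 45 large and 24 small, against 32.1% of all genes. WT replicate 2 was the highest for 52 members, 33 large and 19 small, against 27.4% of all genes. In 50 members both Hif1a-/- arrays lay between the WT arrays, against 32.9% of all genes. With every gene set to its own 4-array mean, the large subunit had a median of -0.24 on WT replicate 1 and 0.14 on WT replicate 2. Its medians on the Hif1a-/- arrays were 0.079 (replicate 1) and 0.019 (replicate 2). The small subunit had medians of -0.24 and 0.16 in WT and of 0.051 and 0.042 in Hif1a-/- cells. Both subunits thus had the same order of arrays by their medians.

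**Figure D1:**
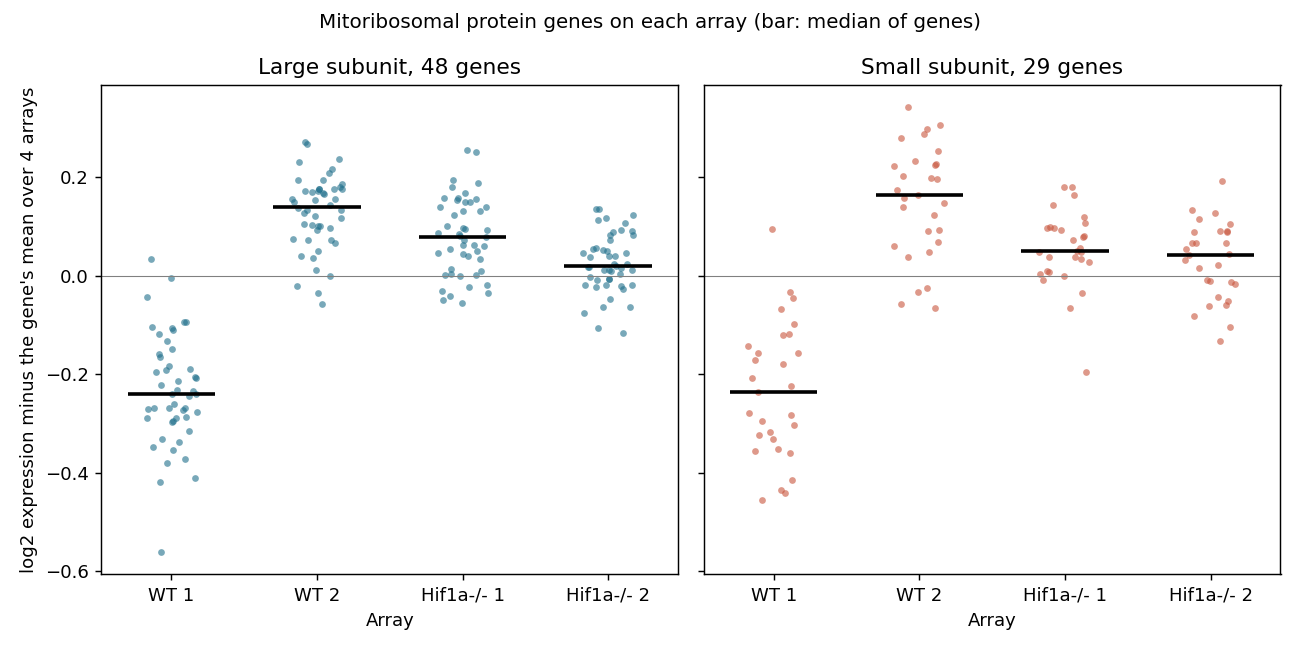
Log2 expression of each mitoribosomal gene relative to its own mean over 4 arrays (vertical axis), by array (horizontal axis), for 48 large and 29 small subunit genes; points are genes and bars their medians. WT replicate 1 lies lowest, with a median of -0.24 in both subunits, and WT replicate 2 highest.

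The gap between the WT arrays was larger than the difference between genotypes in 71 of the 77 members, against 15063 of all 19938 genes. From WT replicate 1 to WT replicate 2 the median gap was 0.36 for the large subunit, with a range from -0.056 (Mrpl41) to 0.83 (Mrpl22), and 0.39 for the small subunit, with a range from -0.13 (Mrps21) to 0.80 (Mrps27). WT replicate 2 read higher in 74 of 77 members, against 45.4% of all genes. Between the Hif1a-/- arrays the median gap, replicate 2 minus replicate 1, was -0.063 for the large and -0.029 for the small subunit. The WT gap was the larger one in 72 of 77 members, against 13743 of all 19938 genes. WT replicate 1 read higher than WT replicate 2 for Ptprc, 8 of 12 granulocyte genes and all 7 lineage genes (gaps from -2.46 to -0.040). It read lower for Kit, Cd34 and the 4 primary granule genes. WT replicate 2 read higher in 2 of 9 lymphoid and 2 of 9 erythroid genes. The same held for 5 of 12 mast cell and basophil genes and 5 of 10 dendritic cell and monocyte genes, against 45.4% of all genes. The part of these marker genes in the gap was not tested. In RNA of sorted cells, a change in which cells were present and a change of RNA per cell cannot be told apart.

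**Figure D2:**
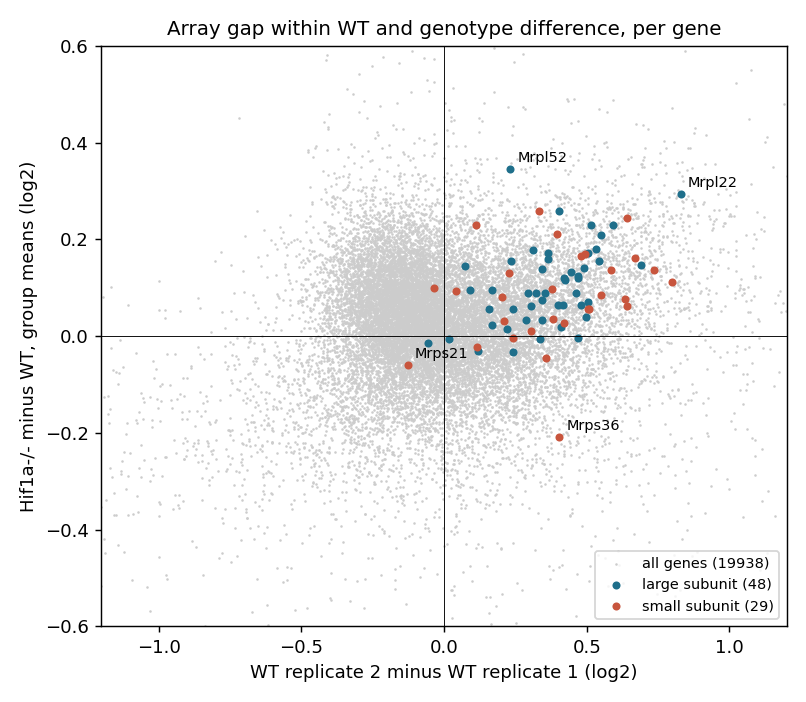
Difference between genotypes (vertical axis, group means, log2) against the gap between the WT arrays (horizontal axis, log2) for all 19938 genes in grey and the 77 mitoribosomal genes in colour; 288 genes lie outside the axes. Members sit to the right of 0 with few exceptions, and Mrpl52 and Mrps36 lie at the upper and lower ends of their vertical spread.

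Leaving out WT replicate 1 turned the direction in both subunits. The median difference became -0.089 for the large and -0.12 for the small subunit, and 8 of 48 and 7 of 29 genes then had a higher mean in Hif1a-/- cells. Without WT replicate 2 the medians were 0.28 and 0.29. Then 47 of 48 and 27 of 29 genes had a higher mean in Hif1a-/- cells, against 11208 of all 19938 genes. Without Hif1a-/- replicate 1 the medians were 0.058 and 0.073, and without Hif1a-/- replicate 2 they were 0.13 and 0.092.

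**Figure D3:**
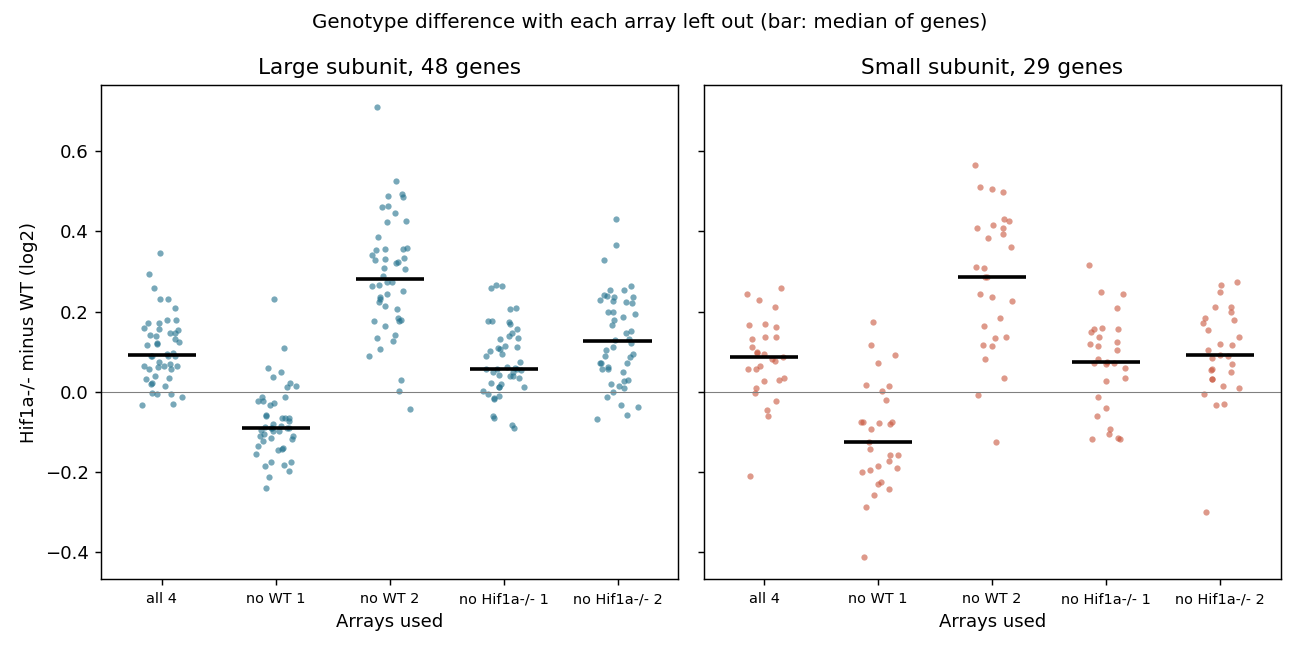
Hif1a-/- minus WT (vertical axis, log2) for each mitoribosomal gene with all 4 arrays and with each array left out (horizontal axis); points are genes and bars medians. The medians are negative without WT replicate 1 (-0.089 and -0.12) and positive in the other settings.

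In 5 large subunit and 5 small subunit genes, 10 of 77 (13.0%), the Hif1a-/- arrays were both above the WT arrays, as in 15.7% of all genes. They were both below in 0 of 77, and in 9.05% of all genes. The share above was near that of all genes.

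Among the large subunit genes, Mrpl52 had the largest difference. It encodes a large subunit protein found in mitochondria only. Mrpl52 read 10.20 and 10.44 on WT replicates 1 and 2 and 10.75 and 10.58 on Hif1a-/- replicates 1 and 2. The groups did not overlap, and the difference was 0.35 ± 0.14 (SE, n = 2 per group; 95% interval 0.0015 to 0.69), and limma gave a p of 0.0493 before and 0.999 after adjustment. It was 0.23 without WT replicate 1 and 0.26 without Hif1a-/- replicate 1.

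Mrpl20, which binds the ribosomal RNA of the large subunit, read 9.80 and 10.20 in WT and 10.26 and 10.27 in Hif1a-/- cells. WT replicate 1 was low and the other arrays were close together. The difference was 0.26 ± 0.16 (SE) with all arrays and 0.058 without WT replicate 1. Mrpl28 read 9.99 and 10.22 in WT and 10.28 and 10.24 in Hif1a-/- cells, with a difference of 0.16, or 0.038 without WT replicate 1. Mrpl47 read 8.60 and 8.67 in WT and 8.78 and 8.78 in Hif1a-/- cells, so that the arrays of each genotype lay close together. Its difference was 0.15 ± 0.12 (SE, 95% interval -0.14 to 0.44), while a second probe set of the gene, with groups that overlapped, differed by 0.028. Mrpl30 read 10.61 and 10.70 in WT and 10.71 and 10.80 in Hif1a-/- cells, with a difference of 0.095.

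Other large subunit genes followed WT replicate 1 more closely. Mrpl12 encodes the protein of the flexible stalk, where translation factors dock. It read 10.38 on WT replicate 1, against 10.97 on WT replicate 2 and 10.93 and 10.89 on the Hif1a-/- arrays. A single array was thus low, and the difference of 0.23 ± 0.20 (SE) became -0.065 without that array. Mrpl58, a release factor built into the large subunit that frees stalled chains, read 9.98 and 10.32 in WT and 10.32 and 10.26 in Hif1a-/- cells. Its difference of 0.14 became -0.033 without WT replicate 1. Mrpl22, named after its values were seen, read 8.38 and 9.21 in WT and 9.12 and 9.05 in Hif1a-/- cells, the widest WT gap of the members. Its difference was 0.29 with an interval of -0.33 to 0.92, and its exact NRF1 letters are printed above. The 6 large subunit genes with a lower mean in Hif1a-/- cells, of which Mrpl24 was the lowest at -0.033, differed by less than their standard errors.

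Among the small subunit genes, Mrps10 had the smallest p-value. It read 9.24 and 9.36 in WT and 9.51 and 9.55 in Hif1a-/- cells, with groups that did not overlap, and differed by 0.23 ± 0.12 (SE; 95% interval -0.068 to 0.53; unadjusted limma p 0.109), or by 0.17 without WT replicate 1. Mrps22, a protein of mitochondria only, in which inherited defects in people impair respiration, read 9.96 and 10.30 in WT and 10.40 and 10.37 in Hif1a-/- cells. Its difference of 0.26 ± 0.15 (SE) became 0.092 without WT replicate 1. Mrps2, a small subunit protein kept from bacteria, read 10.29 and 10.68 in WT and 10.70 and 10.69 in Hif1a-/- cells. Here WT replicate 1 alone was low, and the difference of 0.21 became 0.013 without it. Mrps16 read 10.60 and 10.56 in WT and 10.66 and 10.70 in Hif1a-/- cells. Mrps24 read 10.97 and 11.01 in WT and 11.11 and 11.06 in Hif1a-/- cells. The WT gap of these last genes was small, at -0.034 for Mrps16 and 0.042 for Mrps24, and their differences were 0.099 and 0.094, each below its standard error of 0.12.

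Mrps18a, Mrps18b and Mrps18c descend from one bacterial family and are built into different places. Mrps18a sits in the large subunit despite its name, and Mrps18b and Mrps18c sit in the small subunit. Mrps18b read 10.79 and 11.46 in WT and 11.33 and 11.25 in Hif1a-/- cells, with a WT gap of 0.67. Mrps18a read 10.42 and 10.80 in WT and 10.62 and 10.67 in Hif1a-/- cells, with a gap of 0.38, and Mrps18c read 10.42 and 10.53 in WT and 10.54 and 10.36 in Hif1a-/- cells, with a gap of 0.11. In all 3 the groups overlapped, and the differences were 0.16, 0.034 and -0.023, with intervals of -0.37 to 0.70, -0.35 to 0.42 and -0.34 to 0.30. Mrps30, another protein of the large subunit under a small subunit name, read 8.56 and 9.30 in WT and 9.18 and 8.95 in Hif1a-/- cells, and its difference of 0.14 became -0.23 without WT replicate 1.

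Mrps36 had the lowest difference of all members. Its product was named as a ribosomal protein and is now known as a component of the 2-oxoglutarate dehydrogenase complex of the citric acid cycle. Mrps36 read 8.66 and 9.06 in WT and 8.56 and 8.74 in Hif1a-/- cells, with groups that overlapped and a difference of -0.21 ± 0.17 (SE; 95% interval -0.62 to 0.20; unadjusted limma p 0.265). A second probe set read 8.34 and 8.80 in WT and 8.13 and 8.25 in Hif1a-/- cells, lower in both arrays of the knockout, with a difference of -0.38. Without WT replicate 2 the first set differed by -0.0074. RefSeq lists 6 pseudogenes with Mrpl or Mrps symbols. Whether probes read such copies was not tested.

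**Figure D4:**
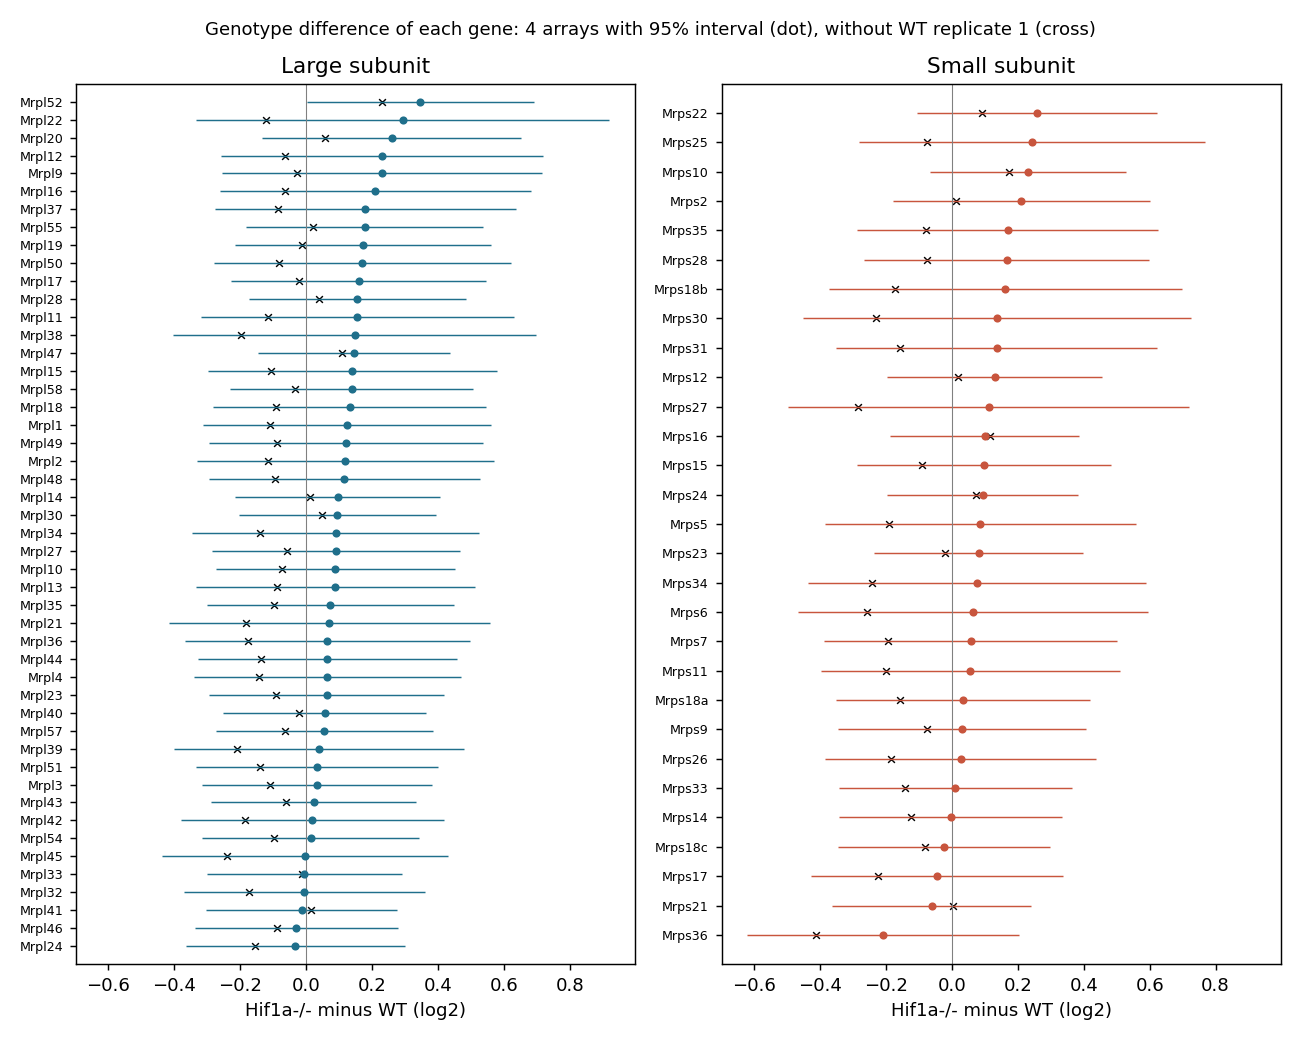
Hif1a-/- minus WT (horizontal axis, log2) for each of 48 large and 29 small subunit genes, ordered by the difference; dots with lines are the values of 4 arrays with 95% intervals from limma's moderated variance, and crosses the values without WT replicate 1. The intervals of 76 genes include 0, and most crosses lie to the left of 0.

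The precision of single genes was limited by the number of arrays. The median standard error over the members was 0.16, and the median half-width of the 95% interval was 0.39. That interval is not adjusted for the number of genes tested, so differences of that size and larger ones could have gone uncalled. Outside the members, Mcpt4 of mast cells was not called at a difference of -1.30. In 76 of 77 members the 95% interval included 0, as it did in 19604 of all 19938 genes. Of the 8 members with more than 1 probe set, Mrpl41 (-0.014 and 0.19) and Mrpl27 (0.090 and -0.033) had sets of opposite sign. The probe set that Mrpl53 shares with Ccdc142 differed by 0.0060.

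Genes of mitoribosome proteins with other symbols were also low on WT replicate 1. Of 4 measured, Dap3, a GTP-binding protein of the small subunit, read 10.53 and 10.87 in WT and 10.90 and 10.73 in Hif1a-/- cells, and Ptcd3, a small subunit protein with RNA-binding repeats, read 9.50 and 10.25 in WT and 9.93 and 9.83 in Hif1a-/- cells. All 4 were lowest on WT replicate 1. The differences between genotypes were 0.12 for Dap3, 0.0038 for Ptcd3, 0.30 for Chchd1 and 0.17 for Gadd45gip1, with groups that overlapped in each.

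Genes that serve mitochondrial translation and gene expression had WT gaps and genotype differences of a similar size. For 16 translation factors and helpers the median WT gap was 0.39 and the median difference 0.14, with a higher mean in 15 of 16. Tufm, the elongation factor, differed by 0.037, Letm1 by 0.22 and Tsfm by 0.19. For 16 mitochondrial tRNA synthetases the gap was 0.50 and the difference 0.14, higher in 16 of 16, with 0.16 for Ears2 and 0.21 for Mars2. For 16 genes of mitochondrial DNA expression the gap was 0.45 and the difference 0.14, higher in 16 of 16. Polrmt, the mitochondrial RNA polymerase, differed by 0.18 and Polg2, a subunit of the DNA polymerase, by 0.20, each without overlap of the groups. Tfam, the packaging factor, differed by 0.045. For 27 genes of mitoribosome assembly the gap was 0.30 and the difference 0.071, higher in 19 and lower in 8. Mpv17l2 read 11.05 and 11.24 in WT and 11.52 and 11.39 in Hif1a-/- cells, and Trub2 read 10.01 and 10.02 in WT and 10.44 and 10.18 in Hif1a-/- cells, with unadjusted limma p of 0.0549 and 0.0783. Without WT replicate 1 the median differences of these 4 lists lay between -0.10 and -0.084. In none of these lists did a gene have an unadjusted p under 0.05.

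The regulators known for such genes had small differences between genotypes, with the exception of Mycn (-0.45). Nrf1 differed by 0.098, Gabpa by -0.051, Esrra by -0.023, and the coactivators Ppargc1b and Pprc1 by 0.15 and 0.26. Myc, which drives ribosome and mitochondrial genes in dividing cells, read 12.58 and 13.09 in WT and 12.94 and 12.91 in Hif1a-/- cells, with the low value on WT replicate 1. Pprc1 read 9.17 and 9.82 in WT and 9.92 and 9.60 in Hif1a-/- cells, low on the same array. Mycn read 9.41 and 10.30 in WT and 9.30 and 9.52 in Hif1a-/- cells, high on WT replicate 2 alone. In all 7 the groups overlapped. Of 14 regulators, 6 had a higher and 8 a lower mean, the median difference was -0.019 and the median WT gap 0.19.

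The respiratory chain, whose core the mitoribosome makes, and the cytosolic ribosome stood apart from the members in the WT gap. For 72 nuclear genes of the respiratory chain and ATP synthase the median WT gap was 0.16, and for 67 genes of cytosolic ribosomal proteins it was 0.11. The median differences between genotypes were 0.086 and 0.0075. The groups were apart, with Hif1a-/- above, in 24 of the 72 respiratory chain genes (33.3%), against 13.0% of the members and 15.7% of all genes, with 0.31 for Atp5k and 0.24 for Atp5o. Without WT replicate 1 the respiratory chain had a median of 0.032 while the members had -0.090. For 25 import genes the median gap was 0.30, and the median difference without WT replicate 1 was -0.024. Both values lay between those of the members and of the respiratory chain. With all arrays the median difference of the import genes was 0.14 (0.37 for Tomm5 and 0.35 for Timm10), above both of those lists. These contrasts between lists are descriptions and were not tested. Over 19 genes of S phase and mitosis the median gap was 0.20 and the median difference 0.094.

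**Figure D5:**
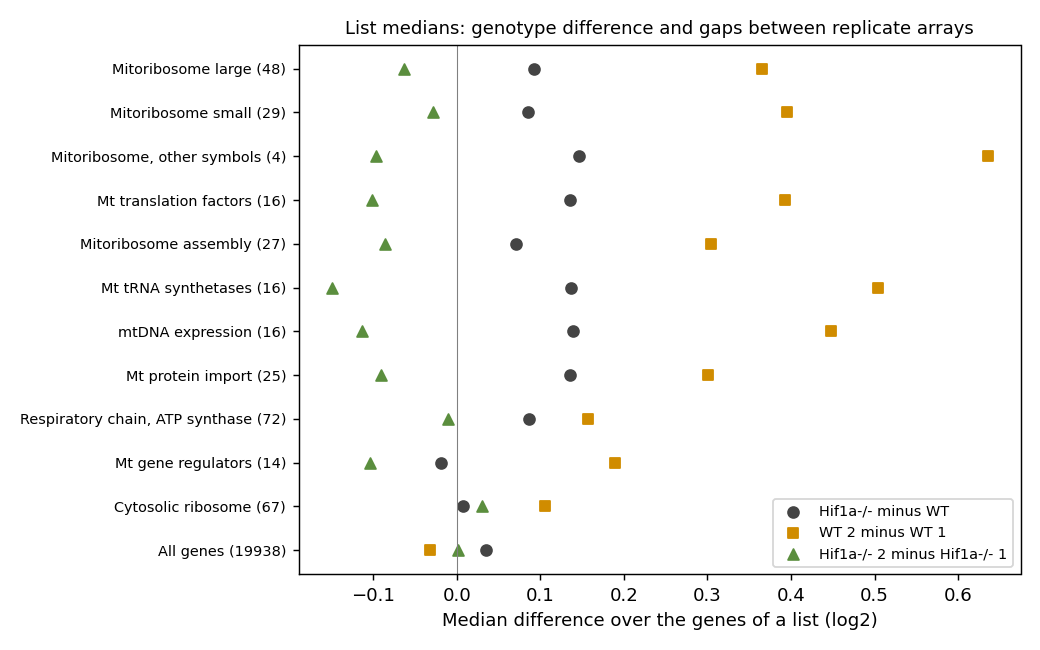
Median difference over the genes of each list (horizontal axis, log2) between genotypes, between the WT arrays and between the Hif1a-/- arrays; the number of genes is in parentheses. The WT gap is 0.36 and 0.39 for the mitoribosome subunits, 0.16 for the respiratory chain and 0.11 for the cytosolic ribosome, and the genotype difference is 0.15 or less in every list.

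The values of members with and without each set of promoter letters were compared as medians, with no test. Members with the exact NRF1 letters had a median WT gap of 0.50 (7 genes, from 0.32 to 0.83), against 0.36 in the 61 without them. With the looser letters the medians were 0.38 in 18 genes and 0.37 in 50. For the ETS letters they were 0.33 in 25 genes and 0.40 in 43, and for the YY1 letters 0.45 in 8 and 0.35 in 60. The median genotype difference was 0.16 with the exact NRF1 letters and 0.090 without them, and 0.061 with the looser letters and 0.096 without. It was 0.090 with and 0.094 without the ETS letters, and 0.069 with and 0.092 without the YY1 letters. Of the genes that start opposite a member, 22 were measured and are no members themselves. Their median WT gap was 0.17, with WT replicate 2 higher in 16 of 22, against 0.38 for the members they face. Twnk had a gap of 0.82 beside 0.17 for Mrpl43, and Sars2 one of 0.47 beside 0.23 for Mrps12, while Ppp1r10 had 0.0083 beside 0.67 for Mrps18b and Klc4 -0.20 beside 0.47 for Mrpl2. These pairs were named after their values were seen.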

How the data were processed

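RNA of 4 samples was hybridised to 1 array each. Per the submitters' processing notes, the authors made the deposited log2 values by RMA in Affymetrix Expression Console 1.1; other settings are not given here. RMA draws differences of dim genes together and scales out changes of total RNA. Of 35556 probe sets, 21789 carried 1 symbol in the platform annotation, 1621 several and 12146 none; single-symbol sets gave 19938 genes, each read from its highest-mean set. All 77 members matched RefSeq (GRCm38.p6) by Entrez number with 0 changed symbols, and 9 were not in the promoter table, so their promoters were not analysed here. Protein sequences were not used here.

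The test was limma 3.58.1 in R 4.3.3 (lmFit, eBayes), with genotype as the only term, on 4 arrays (2 residual and 4.46 prior degrees of freedom), adjusted by Benjamini-Hochberg over all genes at 0.05; the 95% intervals use the same variance. An exact permutation test of these groups cannot go below a two-sided p of 0.333. The fit was tested on simulated data. These had independent errors drawn from the fit's own variance model, and so no shift shared by the genes of an array. Lists are described by counts and medians, without a set test. Genes named were members with groups that do not overlap (up to 5 per subunit and direction by p), a fixed set of members and regulators, and 2 genes of smallest p from each of 8 other mitochondrial lists; other names were chosen after values were seen. Members and lists were chosen with earlier results of these data known. The labels do not say whether same-numbered arrays were paired. The gap between the WT arrays and the gap between the Hif1a-/- arrays correlated at -0.0072 over all genes. With so few arrays this value cannot tell whether same-numbered arrays shared a batch. Alternatives were filters on dim genes, 2 other normalizations, another variance model, the mean of all probe sets, a replicate block and each array left out.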

Additional observations from a re-analysis of the deposited data

How the results depend on the processing

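The median differences of both subunits stayed positive under all alternatives but 1: with 1 array left out they ranged from -0.089 to 0.28 for the large and from -0.12 to 0.29 for the small subunit, negative without WT replicate 1, and the number of members with a higher mean ranged from 8 to 47 and from 7 to 27. With all 4 arrays, 0 members of either subunit were called under each alternative. The number of large subunit genes with separate groups, Hif1a-/- above, was 11 after a second quantile normalization and 3 with array medians centred, against 5. Over all genes, 0 were called, with 139 higher and 195 lower at an unadjusted limma p under 0.05; 2 were called with trend and robust fitting, 47 with the replicate block, which called 0 members, and from 2 to 1442 with 1 array left out. The ranges with 1 array left out were 0.23 to 0.46 for Mrpl52, 0.058 to 0.46 for Mrpl20, -0.065 to 0.53 for Mrpl12, -0.033 to 0.31 for Mrpl58, -0.16 to 0.23 for Mrps18a, -0.17 to 0.50 for Mrps18b, -0.11 to 0.069 for Mrps18c and -0.23 to 0.51 for Mrps30. The cause of these changes was not tested; each such fit has 1 array fewer. Of the 119 values of 17 named members under the other alternatives, none changed sign or its call at an adjusted p under 0.05. The unadjusted limma p of Mrpl52, 0.0493 in the main fit, ranged from 0.0176 to 0.0906 under these alternatives. Among these alternatives, the filters, the other variance model and the replicate block leave each difference as it is. Signs and medians could therefore change only under the rest and with an array left out. All 77 members passed both filters on dim genes.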
